A study of Mus musculus with 24 samples.

Results

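The comparison of HFD_Cont with STD_Cont set 8 arrays of skeletal muscle from mice on a high fat diet against 8 from mice on a low fat control diet. Its members were chosen by label, every array labelled HFD_Cont or STD_Cont, which gave 16 of the 24 arrays of the series. Both groups belong to the control lineage (Cont), so that diet is the only labelled difference between them. The other 8 arrays, HFD_O3, came from omega-3 lineage mice given the high fat diet and entered the fit only to estimate the spread. Total RNA was labelled with Cy3 and hybridised to one-colour Agilent oligonucleotide arrays, 1 array per sample. Not given in the sources used here are the muscle taken, the strain, sex and age of the mice, the length of the diets, and the feeding state and hour at collection. The p-values measure the spread between the 8 samples of each group.

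Skeletal muscle adjusts its gene expression to fuel supply and hormones. When insulin and food are scarce, FOXO transcription factors and the glucocorticoid receptor raise genes that break down muscle protein, spare glucose and burn fat, and feeding lowers them again. Long feeding with a high fat diet is known to add lipid and connective tissue to muscle and to shift the daily rhythm of clock genes. A muscle sample also holds endothelial cells, fibroblasts, immune cells and, between the fibres, adipocytes. In such bulk samples, fewer cells of a type and less RNA per cell cannot be told apart.

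Levels are log2 processed signals minus the 75th percentile of the same array, so a level of 0 equals that percentile, and levels of different genes are not compared. Differences are log2 HFD_Cont minus STD_Cont with limma's moderated standard error (SE), and "passed" means an adjusted p under 0.05. Of 19937 gene names tested, 581 passed (2.91%), 286 of them higher (1.43%) and 295 lower (1.48%) in HFD_Cont. The median difference over all names was 0.0023 and 50.8% of names were above 0. Falls reached further than rises, with 28 names lower by over 1 and 10 higher by over 1. On 228 names (1.14%) the 8 HFD_Cont arrays and the 8 STD_Cont arrays did not overlap at all. In the 24 fits that each left out 1 array, 170 names passed every time, 136 of them with a plain gene symbol (76 higher and 60 lower), and the 20 largest rises and 20 largest falls among those 136 are the leading genes below. Of these 24 fits, 8 left out an HFD_O3 array, which alters the estimated spread but not the difference.

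The arrays were alike in quality. Between 52 and 60.7% of the spots of an array were well above background, no array had a saturated spot (0 on each), and each array correlated with its group at a median of 0.985 to 0.993. All 12 muscle fibre markers were well above background on all 16 arrays, with a median difference of 0.01. White adipocyte markers varied widely between arrays. Their mean level, relative to the mean over 24 arrays, ran from −1.25 to 2.17 in HFD_Cont and from −1.43 to 1.27 in STD_Cont, 3 HFD_Cont arrays (2, 4 and 5) and 2 STD_Cont arrays (1 and 4) lay above 0.5, and 12 of the 16 markers were well above background on all 16 arrays. Slow fibre genes ran from −2.06 to 0.87 and from −0.40 to 1.07, with HFD_Cont 4 lowest. Each of the 3 slides carried both groups, but the rows of a slide were not balanced: on slide 2 the HFD_Cont arrays lay in row 1 and the STD_Cont arrays in row 2, and row 2 of slide 1 held no STD_Cont array. With slide as a block 647 names passed, 545 of the 581 among them, and with each combination of slide and row as a block 73 passed, 67 of the 581 and 12 of the 40 leading genes among them; all 40 kept their sign. Without STD_Cont 1 the count was 182, and without the 7 arrays of the series with an adipocyte score over 0.5 it was 0, with 1691 names at an unadjusted p under 0.05 by limma.

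The largest fall of a leading gene was that of Depp1, a FOXO target induced by fasting that regulates autophagy. Depp1 lay between 1.92 and 6.08 (median 3.97) on STD_Cont arrays and between 0.30 and 1.98 (median 0.76) on HFD_Cont arrays. The groups met at a single point: 7 of the 8 HFD_Cont arrays lay below the lowest STD_Cont array, and the STD_Cont arrays were spread far more widely. The fall of Depp1 was −3.14 ± 0.63 (SE, adjusted p = 0.0143, 8 arrays per group), or 8.81-fold, and its probe lies at chr6:116602564-116602623 of mm9. Within the 3 slides the differences were −2.53, −3.77 and −2.92. With each combination of slide and row as a block its difference was −2.88 and did not pass (adjusted p = 0.130).

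Glucocorticoid-induced genes were the list with the highest share of falls. Falls were called for 17 of its 32 measured members (53.1%, against 1.48% of all names) and rises for 0; at an unadjusted p under 0.05, 23 were lower and 2 higher. The median difference of the list was −0.58, and −0.53, −0.61 and −0.54 within the 3 slides. The list was written with earlier results of these data known, so its count is not independent evidence of its direction, and the same holds for the FOXO list below. Over the fits that left out 1 array, between 12 (without STD_Cont 1) and 20 members were called lower, and 11 of the 17 were called in all 24. With each combination of slide and row as a block 3 members passed.

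**Figure D1:**
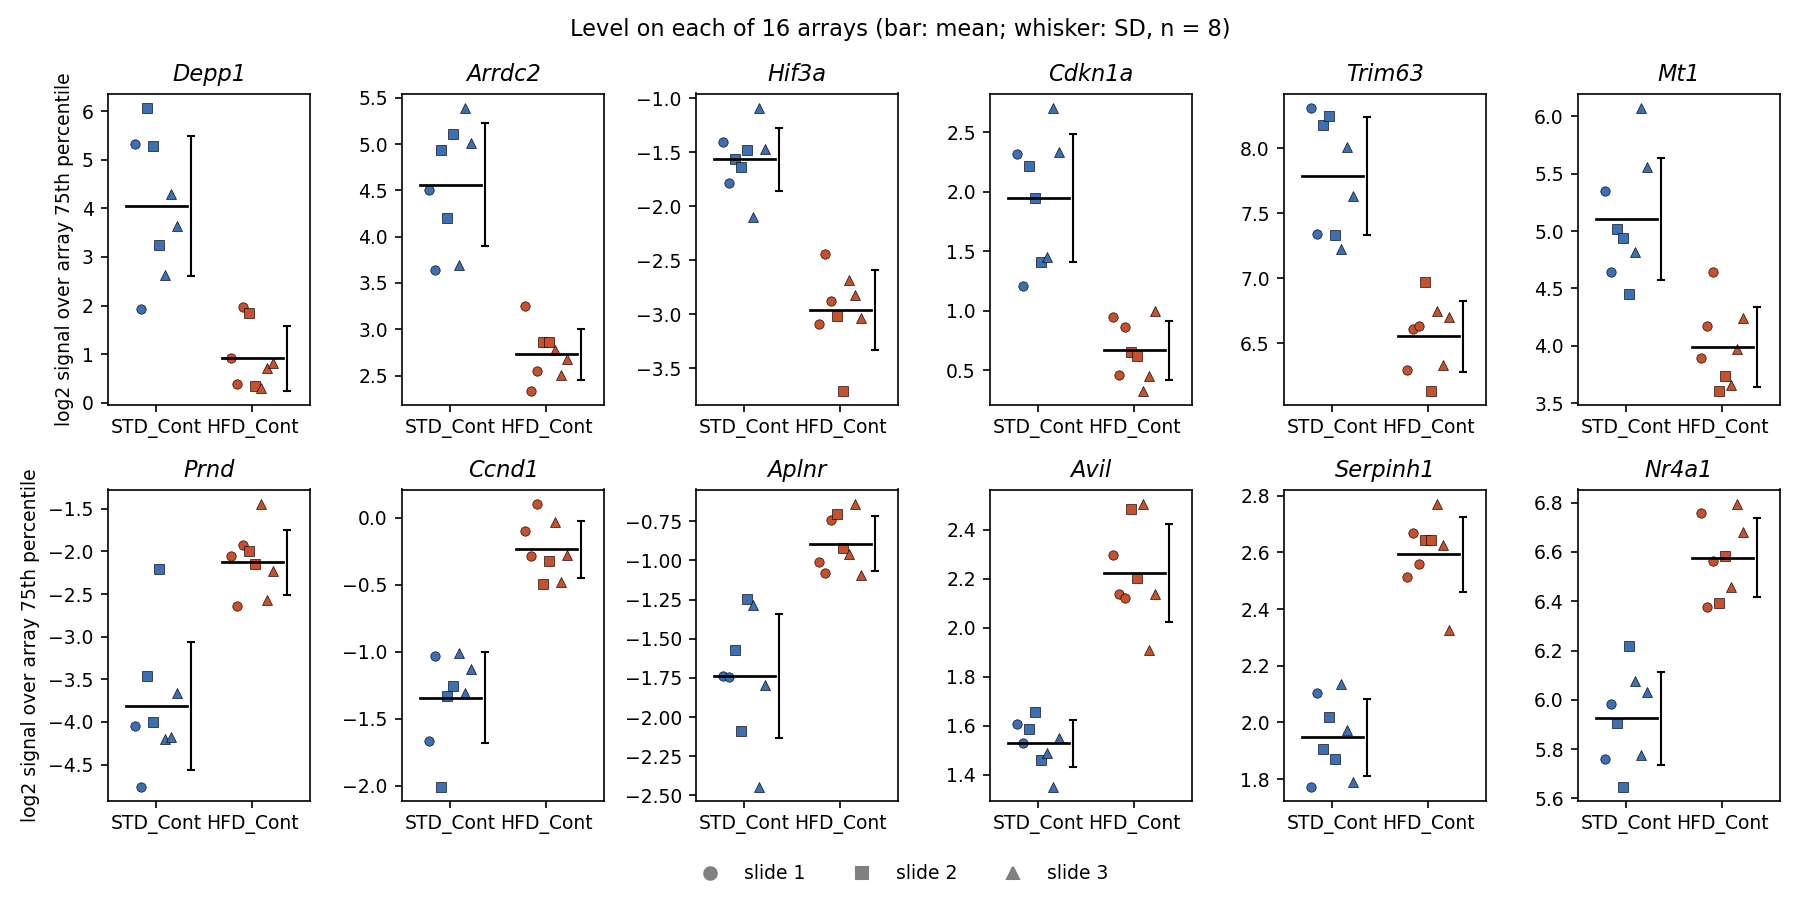
Level of 12 leading genes (log2 signal minus the array's 75th percentile) on each of the 16 arrays, with the symbol shape giving the slide, the bar the group mean and the whisker the SD (n = 8). The upper row shows falls, from Depp1 (group means 4.05 in STD_Cont and 0.91 in HFD_Cont) to Mt1, and the lower row rises. Arrdc2, Hif3a, Cdkn1a, Trim63, Ccnd1, Aplnr, Avil, Serpinh1 and Nr4a1 show no overlap between the groups. Of all 40 leading genes 20 show no overlap, and of all names tested 1.14%.

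Arrdc2, an arrestin-domain gene that glucocorticoids induce in muscle, lay between 3.64 and 5.39 (median 4.72) in STD_Cont and between 2.34 and 3.25 (median 2.73) in HFD_Cont. No HFD_Cont array reached the STD_Cont range, and a second probe gave −1.87 beside −1.83 ± 0.38 (SE, adjusted p = 0.0157). Hif3a, which encodes a partner of the hypoxia-inducible factors, lay between −2.10 and −1.09 (median −1.52) in STD_Cont and between −3.71 and −2.44 (median −2.95) in HFD_Cont, where 7 of 8 arrays measured it well above background. It fell by 1.39 ± 0.18 with no overlap, and its adjusted p of 0.00151 remained at or below 0.00608 in every fit that left out 1 array. With slide by row as a block Hif3a passed (adjusted p = 0.0102) and Arrdc2 did not (0.105). Map3k6, a stress kinase gene, showed a tight HFD_Cont group, with levels from 0.09 to 0.38 against 0.72 to 2.12 in STD_Cont, and fell by 1.07 ± 0.22 (SE, adjusted p = 0.0157).

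Fkbp5, the co-chaperone that limits glucocorticoid receptor signalling and is itself induced by it, lay between 3.85 and 5.34 (median 5.05) in STD_Cont and between 2.88 and 4.03 (median 3.49) in HFD_Cont. A single HFD_Cont array overlapped the STD_Cont range. Fkbp5 fell by 1.41 ± 0.32 (SE, adjusted p = 0.0215) and passed in 23 of the 24 fits, but not without STD_Cont 1 (adjusted p = 0.0539). A second Fkbp5 probe gave −1.12 and did not pass. Zbtb16, a transcriptional repressor, fell by 0.77 ± 0.14 (adjusted p = 0.0103), and Sult1a1, a phenol sulfotransferase, by 0.78 ± 0.17 (adjusted p = 0.0181).

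Cebpd, a transcription factor gene of the acute response, lay between 4.35 and 5.88 in STD_Cont and between 3.29 and 4.26 in HFD_Cont. Its groups did not overlap, yet its difference of −1.51 ± 0.41 (adjusted p = 0.0473) was kept in 7 of the 24 fits, with an adjusted p of up to 0.0991 without STD_Cont 1. Glul, glutamine synthetase, fell by 1.14 ± 0.27 (adjusted p = 0.0246, kept in 20 of 24), with 6 of 8 HFD_Cont arrays below the STD_Cont range. Outside the naming rule, and picked after their values were seen, the receptor gene Nr3c1 had a difference of 0.05 (adjusted p = 0.759), and the widely used marker genes Tsc22d3 and Sgk1 had differences of −0.32 (adjusted p = 0.0410, kept in 11 of 24) and 0.04 (adjusted p = 0.949).

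Genes of the FOXO and atrophy list also fell. Falls were called for 12 of 40 measured members (30.0%, against 1.48% of all names) and rises for 0. The median difference was −0.30 (−0.27, −0.27 and −0.25 within the slides). At an unadjusted p under 0.05, 25 were lower and 2 higher, and over the fits that left out 1 array between 8 (without STD_Cont 1) and 18 members were called lower. Of the 12, 5 (Cdkn1a, Cebpb, Cebpd, Mt1 and Mt2) also stand in the glucocorticoid list, so both lists together hold 24 genes that fell. With each combination of slide and row as a block 1 member of the list passed.

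Trim63, the muscle ubiquitin ligase also called MuRF1, lay between 7.22 and 8.31 (median 7.82) in STD_Cont and between 6.13 and 6.97 (median 6.62) in HFD_Cont. The groups did not overlap, and 2 further probes gave differences from −1.28 to −0.97 beside −1.23 ± 0.25 (SE, adjusted p = 0.0157). Neither Trim63 (adjusted p = 0.111) nor Cdkn1a (0.0740) passed with slide by row as a block. Cdkn1a, the Cdk inhibitor p21, had a median level of 2.08 in STD_Cont and 0.63 in HFD_Cont, with no overlap, and fell by 1.28 ± 0.27 (adjusted p = 0.0157). Foxo1, which encodes a FOXO factor itself, fell by 0.64 ± 0.14 (adjusted p = 0.0193), with 7 of 8 HFD_Cont arrays below the STD_Cont range.

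The other muscle ubiquitin ligase gene that is usually read with Trim63, Fbxo32 (atrogin-1), did not pass, with a difference of −0.02 (adjusted p = 0.974); it was picked for mention after its value was seen. Proteins marked by such ligases are broken down by the proteasome, and of 40 measured proteasome subunit genes 0 passed (1 higher and 3 lower at an unadjusted p under 0.05), with a median difference of −0.03. A second, dimmer probe of 1 of them, Psmc2, was called lower at −0.50, beside −0.15 (adjusted p = 0.211) on the probe that stood for the gene. Of 46 autophagy and lysosome genes 2 fell (4.35%, against 1.48% of all names) and 0 rose. Atg14, a subunit of the kinase complex that starts autophagosomes, fell by 0.30 ± 0.07 (adjusted p = 0.0234, kept in 22 of 24), and the cargo receptor gene Sqstm1 by 0.25 ± 0.06 (adjusted p = 0.0330, kept in 16 of 24). Both lost their call without STD_Cont 1, at adjusted p = 0.0554 and 0.0707. The 2 other Sqstm1 probes gave −0.34 and −0.24 and did not pass.

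**Figure D2:**
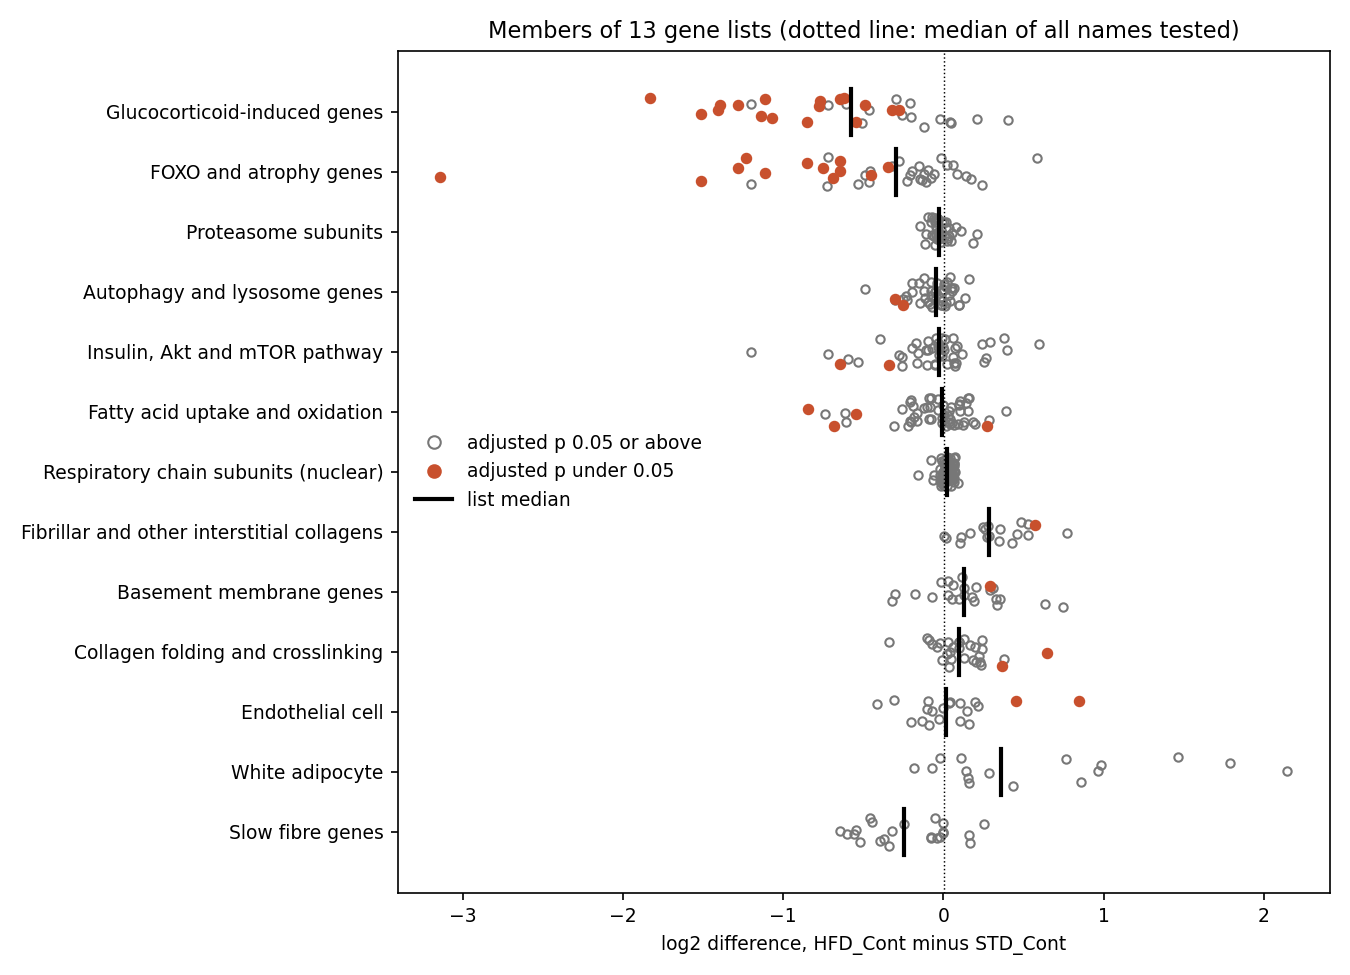
Log2 difference (HFD_Cont minus STD_Cont) of each measured member of 13 gene lists, filled where the adjusted p is under 0.05, with the list median as a bar and the median of all names as a dotted line. The glucocorticoid list (median −0.58) and the FOXO and atrophy list (−0.30) lie to the left, proteasome and respiratory chain genes close to 0, and the interstitial collagens (0.29) to the right with 1 filled point.

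Metal and oxidative stress genes moved in both directions. The metallothioneins buffer zinc and copper and are induced by metals and by glucocorticoids. Mt1 lay between 4.45 and 6.08 (median 4.98) in STD_Cont and between 3.61 and 4.64 (median 3.93) in HFD_Cont, and fell by 1.11 ± 0.24 (SE, adjusted p = 0.0166). A second Mt1 probe gave −0.52 and did not pass. Mt2 fell by 0.85 ± 0.23 (adjusted p = 0.0441, kept in 10 of 24, and 0.0960 without STD_Cont 1).

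Slc30a1, the exporter that zinc induces, fell by 0.35 ± 0.06 (adjusted p = 0.0103), from 0.45 to 0.62 in STD_Cont to 0.01 to 0.36 in HFD_Cont. Slc39a10, a zinc importer and the list's only rise, rose by 0.42 ± 0.07 (adjusted p = 0.00714), from −2.36 to −1.98 up to −1.87 to −1.41. For neither gene did the groups overlap. Hmox1, heme oxygenase, fell by 0.72 ± 0.13 (adjusted p = 0.0103), with 7 of 8 HFD_Cont arrays below the STD_Cont range. In all, 4 of the 42 measured genes of the oxidative stress and metal list fell (9.52%) and 1 rose (2.38%). Over all names, 1.48% passed lower and 1.43% higher. The list's median was −0.04.

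Pdk4, a pyruvate dehydrogenase kinase gene, lay between 9.16 and 9.49 in STD_Cont and between 8.34 and 9.16 in HFD_Cont. The groups did not overlap, and Pdk4 fell by 0.54 ± 0.10 (SE, adjusted p = 0.0103). Ucp3, a mitochondrial carrier gene that follows fatty acid supply, fell by 0.68 ± 0.16 (adjusted p = 0.0240, kept in 22 of 24, and 0.0533 without HFD_Cont 5), and Ehhadh, of peroxisomal fatty acid oxidation, by 0.84 ± 0.21 (adjusted p = 0.0277, kept in 17 of 24). Decr1, which prepares unsaturated fatty acids for oxidation, rose by 0.27 ± 0.07 (adjusted p = 0.0432, kept in 10 of 24).

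These were the 4 of 55 measured genes of fatty acid uptake and oxidation that passed (3 lower, 1 higher), and the list's median was −0.01. The shares over all names were 1.48% lower and 1.43% higher. Of 79 nuclear genes of the respiratory chain 0 passed (1 higher and 1 lower at an unadjusted p under 0.05), and their differences ran from −0.16 to 0.09. None of 26 tricarboxylic acid cycle genes passed (0 of 26, with 1 lower at an unadjusted p under 0.05), nor any of 25 fatty acid synthesis genes (0 of 25, with 2 in each direction).

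Lipid droplet genes fell in 4 of 23 cases (17.4%, against 1.48% of all names) and 0 rose (3 higher and 7 lower at an unadjusted p under 0.05), with a median of −0.04. Plin4, a coat protein gene of lipid droplets, lay between 6.92 and 7.65 in STD_Cont and between 6.33 and 6.78 in HFD_Cont, with no overlap, and fell by 0.72 ± 0.15 (adjusted p = 0.0168). Gpat3, an acyltransferase of triglyceride synthesis, fell by 0.41 ± 0.08 (adjusted p = 0.0103), Plin3, another droplet coat gene, by 0.58 ± 0.13 (kept in 22 of 24), and Fitm2, which helps droplets to form, by 0.27 ± 0.07 (kept in 14 of 24). Abca1, the cholesterol exporter induced by sterols, fell by 0.45 ± 0.10 (adjusted p = 0.0171) and was the 1 of 28 genes of the cholesterol list to pass. White adipocytes share several lipid droplet genes, and the level of their markers is given above. With the adipocyte score in the model, the differences were −0.75 for Plin4 (adjusted p = 0.0256), −0.41 for Gpat3 (0.0188) and −0.53 for Plin3 (0.0468), and −0.25 for Fitm2, which did not pass (0.0778). Without the arrays whose adipocyte score exceeded 0.5, the difference of Plin4 was −0.71.

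In insulin signalling, Foxo1 and Ptpn1, the phosphatase that switches off the insulin receptor, were the 2 of 48 measured genes that passed, and both fell. They made up 4.17% of the list, against 1.48% of all names that passed lower. The list's median was −0.03, with 18 members above 0 and 30 below. Ptpn1 lay between 3.35 and 3.63 in STD_Cont and between 2.95 and 3.30 in HFD_Cont, without overlap, and fell by 0.34 ± 0.07 (adjusted p = 0.0174). Prodh, proline dehydrogenase, fell by 0.77 ± 0.19 (adjusted p = 0.0269, kept in 20 of 24), with no overlap.

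**Figure D3:**
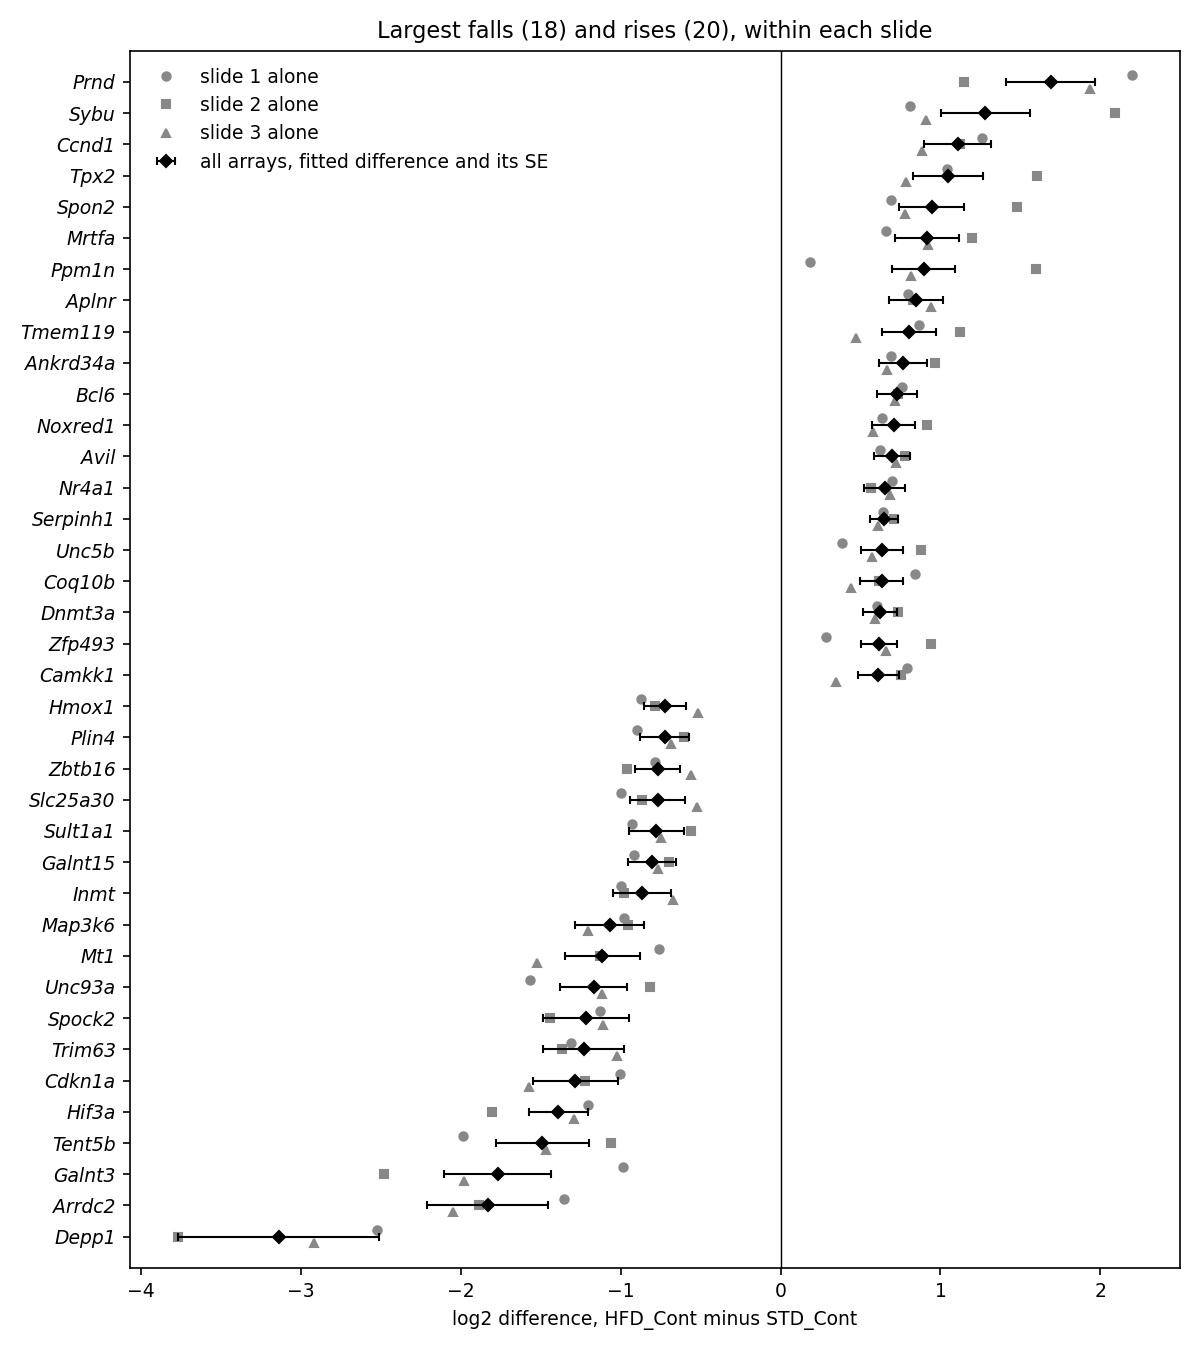
Fitted log2 difference (HFD_Cont minus STD_Cont) and its SE for 18 of the 20 largest falls and the 20 largest rises kept in all fits that left out 1 array, with the difference within each of the 3 slides in grey. All 38 genes shown have the same sign on each slide, from −3.77 for Depp1 on slide 2 to 2.20 for Prnd on slide 1. They were chosen on these same arrays, and all 581 names that passed likewise have 1 sign on the 3 slides. The agreement is therefore not independent evidence and does not set these genes apart.

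Several other leading falls have no place in the lists. Galnt3 and Galnt15 start O-linked glycans on secreted proteins. Galnt15 lay between 2.73 and 3.88 in STD_Cont and between 2.18 and 2.66 in HFD_Cont, and fell by 0.81 ± 0.15 (adjusted p = 0.0103). Galnt3 fell by 1.77 ± 0.33 (adjusted p = 0.0103), but 2 of 8 HFD_Cont arrays measured it well above background, against 8 of 8 in STD_Cont. Tent5b, a poly(A) polymerase gene, fell by 1.49 ± 0.29 (adjusted p = 0.0138), Spock2, a matrix proteoglycan gene, by 1.22 ± 0.27 (adjusted p = 0.0182), and Unc93a by 1.17 ± 0.21 (adjusted p = 0.00982). A second Spock2 probe gave −0.35 and did not pass. Inmt, a methyltransferase gene, fell by 0.87 ± 0.18 (adjusted p = 0.0158), and Slc25a30, a mitochondrial carrier gene, by 0.77 ± 0.17 (adjusted p = 0.0215).

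Among the rises were the 3 D-type cyclins. D-type cyclins activate Cdk4 and Cdk6 at the start of the cell cycle and are opposed by Cdk inhibitors such as Cdkn1a. Ccnd1 lay between −2.01 and −1.01 (median −1.28) in STD_Cont and between −0.49 and 0.10 (median −0.28) in HFD_Cont. Every HFD_Cont array exceeded every STD_Cont array, and Ccnd1 rose by 1.11 ± 0.21 (SE, adjusted p = 0.0103), a 2.15-fold difference, with an adjusted p of 0.0579 when slide by row was a block.

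Ccnd2 rose by 0.61 ± 0.12 (adjusted p = 0.0133), from 1.71 to 2.03 in STD_Cont to 2.20 to 2.87 in HFD_Cont, and 2 further probes gave 0.55 and 0.77. Ccnd3 rose by 0.28 ± 0.07 (adjusted p = 0.0330, kept in 15 of 24). Of 21 measured genes of the list of D-type cyclins, Cdks and Cdk inhibitors these 3 rose and Cdkn1a fell. The shares over all names were 1.43% higher and 1.48% lower. Of 35 genes of mitosis and DNA replication 1 rose and 4 fell, with a median of −0.05. The rise was that of Tpx2, a spindle assembly factor, by 1.04 ± 0.22 (adjusted p = 0.0158), and the falls were those of Hmgb2 (−0.57, kept in 18 of 24), the condensin gene Smc4 (−0.35), and the replicative helicase genes Mcm7 (−0.31, kept in 11 of 24) and Mcm3 (−0.30). A further 16 genes of that list, Cdk1, Ccnb1 and Top2a among them, were not measured well above background on enough arrays to be tested.

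The apelin receptor gene Aplnr, expressed by sprouting endothelial cells, lay between −2.44 and −1.25 (median −1.74) in STD_Cont and between −1.09 and −0.64 (median −0.94) in HFD_Cont. The groups did not overlap, and Aplnr rose by 0.85 ± 0.17 (SE, adjusted p = 0.0145, and 0.0629 with slide by row as a block). Its ligand gene Apln rose by 0.59 ± 0.16 (adjusted p = 0.0485, kept in 8 of 24, and 0.113 without STD_Cont 1). Kdr, the main VEGF receptor gene, rose by 0.45 ± 0.10 (adjusted p = 0.0210), with 7 of 8 HFD_Cont arrays above the STD_Cont range.

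Unc5b, a guidance receptor gene of endothelial tip cells, rose by 0.63 ± 0.13 (adjusted p = 0.0157), with no overlap, and Angpt1, the ligand of the Tek receptor, by 0.44 ± 0.12 (adjusted p = 0.0445, kept in 7 of 24). Prnd, a relative of the prion protein gene that is known from developing vessels, rose by 1.69 ± 0.28 (adjusted p = 0.0076), but 3 of 8 STD_Cont arrays measured it well above background. Of 20 endothelial markers, Aplnr and Kdr rose (10%, against 1.43% of all names) and 18 did not pass. The median difference was 0.02, and the mean level of the list ran from −0.15 to 0.16 in HFD_Cont and from −0.24 to 0.16 in STD_Cont. At an unadjusted p under 0.05 by limma, 4 of the 20 were higher and 3 lower. In all, 10 lay above 0 and 10 below, the lowest being Cldn5 at −0.41.

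All 19 measured interstitial collagens had a difference above 0, with a median of 0.29, yet only Col6a3 passed, by 0.57 ± 0.14 (adjusted p = 0.0307, kept in 16 of 24). At an unadjusted p under 0.05, 9 of the 19 were higher and 0 lower. The median was 0.48, 0.43 and 0.18 within the slides and 0.18 without the arrays with an adipocyte score over 0.5, a drop of over 1.5 times. The mean level of the list lay between 0.08 and 0.32 in HFD_Cont and between −0.56 and 0.09 in STD_Cont, where STD_Cont 1 was lowest. With the adipocyte score in the model the median was 0.28 and Col6a3 did not pass (adjusted p = 0.0639).

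Among genes that fold collagen, Serpinh1, the collagen chaperone Hsp47, lay between 1.77 and 2.13 (median 1.94) in STD_Cont and between 2.33 and 2.77 (median 2.63) in HFD_Cont. No array of either group lay within the range of the other. Serpinh1 rose by 0.65 ± 0.09 (adjusted p = 0.00151), and its difference was 0.64, 0.71 and 0.61 within the slides and 0.59 without the adipocyte-rich arrays. Fkbp14, a prolyl isomerase of the endoplasmic reticulum, rose by 0.37 ± 0.07 (adjusted p = 0.0143). These were the 2 of 30 genes of collagen folding and crosslinking that passed. Col4a2, of the basement membrane, rose by 0.29 ± 0.08 (adjusted p = 0.0460, kept in 6 of 24), the 1 of 24 basement membrane genes to pass, and Spon2, a secreted matrix protein gene, by 0.95 ± 0.20 (adjusted p = 0.0171), the 1 of 43 matrix glycoprotein genes.

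**Figure D4:**
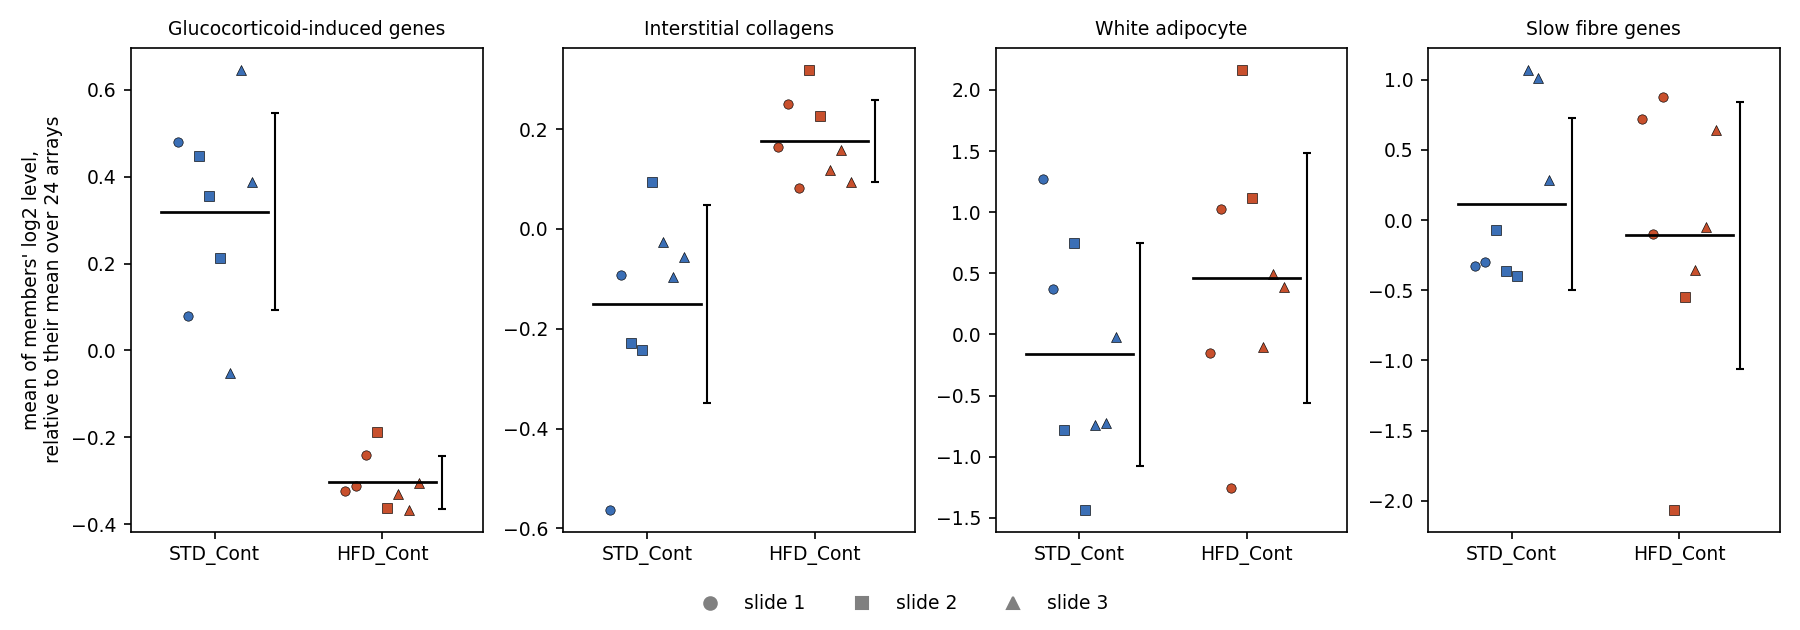
Mean level of the members of 4 lists on each of the 16 arrays, relative to each gene's mean over all 24 arrays (log2), with the symbol shape giving the slide, the bar the group mean and the whisker the SD (n = 8). The glucocorticoid list lies from −0.37 to −0.19 in HFD_Cont and from −0.05 to 0.65 in STD_Cont, the collagens overlap at 0.08 to 0.09, and white adipocyte and slow fibre genes spread widely in both groups.

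Avil, an actin-binding gene of the villin family, showed tight groups, 1.35 to 1.66 in STD_Cont and 1.91 to 2.51 in HFD_Cont, and rose by 0.70 ± 0.11 (adjusted p = 0.00714), with 0.65 on a second probe. Mrtfa, a coactivator of serum response factor that enters the nucleus when actin polymerises, rose by 0.92 ± 0.20 (adjusted p = 0.0174), with 7 of 8 HFD_Cont arrays above the STD_Cont range. Sybu, which links cargo to kinesin, rose by 1.28 ± 0.28 (adjusted p = 0.0179); 7 of 8 STD_Cont arrays measured it, and STD_Cont 3 lay far below the others.

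Transcriptional and chromatin regulators that rose were Bcl6, a repressor that opposes lipid and inflammatory genes, by 0.73 ± 0.13 (adjusted p = 0.00911), the DNA methyltransferase gene Dnmt3a by 0.62 ± 0.11 (adjusted p = 0.00911, with 0.04 on a second probe), and the nuclear receptor gene Nr4a1 by 0.65 ± 0.13 (adjusted p = 0.0139). A second Bcl6 probe gave 0.59 and did not pass. Nr4a1 lay between 5.65 and 6.22 in STD_Cont and between 6.38 and 6.80 in HFD_Cont, and did not pass with slide by row as a block (adjusted p = 0.0607). Nr4a1 is often listed with the immediate early genes, and of 28 of these it alone passed as higher (3.57%, against 1.43% of all names). Maff (−0.77, kept in 8 of 24) and Klf10 (−0.77, kept in 19 of 24) passed as lower (7.14%, against 1.48%). Of the 28, 14 lay above 0 and 14 below. Coq10b, of ubiquinone handling, rose by 0.63 ± 0.13 (adjusted p = 0.0171) and Camkk1, a kinase upstream of AMPK, by 0.61 ± 0.13 (adjusted p = 0.0166). The 3 other Coq10b probes gave 0.21 to 0.89, and 2 of them passed.

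The remaining leading rises were Ppm1n (0.90, with 6 of 8 STD_Cont arrays measured), Tmem119 (0.80, with 7 of 8), Ankrd34a (0.76), Noxred1 (0.71) and Zfp493 (0.61, with −0.14 on a second probe).

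Few inflammatory genes passed, and those that did went in both directions. Of 29 measured genes of chemokines and their receptors 2 rose and 1 fell, with a median difference of 0.09. Of 45 measured genes of cytokines and inflammatory signalling 1 rose and 3 fell, with a median of 0.01. Over all names tested, 1.43% passed higher and 1.48% lower. The chemokine gene Ccl2, which recruits monocytes, lay between −3.27 and −1.88 (median −2.49) in STD_Cont and between −1.47 and 0.56 (median −1.19) in HFD_Cont. The groups did not overlap, and Ccl2 rose by 1.62 ± 0.40 (SE, adjusted p = 0.0307, kept in 17 of 24). Cxcl13, the B cell attractant, fell by 2.18 ± 0.48 (adjusted p = 0.0200, kept in 23 of 24, and 0.0516 without STD_Cont 1), but 1 of 8 HFD_Cont arrays measured it well above background against 8 of 8 in STD_Cont.

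Cxcl12, a stromal chemokine gene, rose by 0.49 ± 0.11 (adjusted p = 0.0215), and Tnfaip3, a brake on NF-kappaB, by 0.56 ± 0.13 (kept in 21 of 24). Il6ra, an interleukin-6 receptor gene, fell by 0.998 ± 0.249 (adjusted p = 0.0307, kept in 16 of 24, with −0.22 on a second probe), as did Il33 (−0.42, kept in 11 of 24) and Nfkbia, the inhibitor of NF-kappaB that glucocorticoids induce (−0.28, kept in 22 of 24). Of 18 measured macrophage and monocyte markers 0 passed (2 lower and 0 higher at an unadjusted p under 0.05), with a median of −0.01 and medians of 0.40, 0.06 and −0.37 within the slides. None of 43 interferon-stimulated genes passed (0 of 43, with 5 higher and 3 lower at an unadjusted p under 0.05).

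Clock genes shifted in opposite directions. In the clock, the product of Arntl (BMAL1) drives genes with E-boxes such as Ciart, Dbp and Nr1d2, whose products feed back on it. Arntl lay between 2.10 and 2.69 in STD_Cont and between 1.56 and 2.20 in HFD_Cont, and fell by 0.49 ± 0.11 (adjusted p = 0.0234, kept in 23 of 24, and 0.0577 without STD_Cont 1). Dbp lay between 3.36 and 4.36 in STD_Cont and between 4.36 and 5.03 in HFD_Cont, and rose by 0.80 ± 0.21 (adjusted p = 0.0393, kept in 12 of 24). Ciart rose by 1.61 ± 0.41 (adjusted p = 0.0330, kept in 14 of 24), with 3 of 8 STD_Cont arrays measured well above background, and Nr1d2 by 0.28 ± 0.07 (adjusted p = 0.0269, kept in 19 of 24). Of 17 core clock genes 1 rose and 1 fell, and of 18 output genes 2 rose and 1, Cirbp, fell (−0.32, kept in 13 of 24). The shares over all names were 1.43% higher and 1.48% lower. Collection hours are not given, so a shift in the hour and a shift by diet cannot be told apart here.

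Promoter windows were searched for the letters of 4 known elements in the 250 bases before the start, on both strands, using RefSeq promoters on GRCm38.p6. Ciart, Mt2 and Trim63 are shown because each has the element of its own pathway in that window: 3 E-boxes (CACGTG) for the clock output gene, a metal response element (TGCGCNC) for the metallothionein gene, and a forkhead element (GTAAACA, in reverse complement) for the FOXO target. Matches are in capitals, 5′ to 3′ on the gene's strand. Only the letters given were searched, so other forms of an element, such as TGCACCC in the Mt2 window, are neither marked nor counted. The windows are chr3:95882229-95882478 (minus strand), chr8:94172368-94172617 (plus strand) and chr4:134314870-134315119 (plus strand).
Ciart: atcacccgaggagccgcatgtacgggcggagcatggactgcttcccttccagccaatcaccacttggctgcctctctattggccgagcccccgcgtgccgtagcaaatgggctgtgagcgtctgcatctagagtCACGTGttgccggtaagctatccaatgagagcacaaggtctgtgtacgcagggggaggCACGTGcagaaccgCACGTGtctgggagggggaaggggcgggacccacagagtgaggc
Mt2: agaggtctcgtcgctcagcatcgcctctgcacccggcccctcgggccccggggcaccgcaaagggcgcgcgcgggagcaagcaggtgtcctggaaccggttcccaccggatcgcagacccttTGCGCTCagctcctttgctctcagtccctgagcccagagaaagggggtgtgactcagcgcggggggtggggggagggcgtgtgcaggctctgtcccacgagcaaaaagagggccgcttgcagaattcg
Trim63: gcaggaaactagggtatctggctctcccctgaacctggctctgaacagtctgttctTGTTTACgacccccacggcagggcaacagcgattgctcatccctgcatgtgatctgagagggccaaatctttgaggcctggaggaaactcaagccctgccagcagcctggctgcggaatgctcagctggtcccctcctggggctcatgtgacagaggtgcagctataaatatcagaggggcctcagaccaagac
The E-boxes of Ciart begin 116, 58 and 44 bases before the start, the metal element of Mt2 128 bases before it, and the forkhead element of Trim63 194 bases before it.

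E-boxes stood in 8.65% of 185 promoters of names that rose, 7.39% of 203 that fell and 8.04% of all 11773 tested names with a promoter. Metal response elements stood in 22.7, 20.2 and 20.5%, and forkhead elements in 2.70, 4.43 and 2.27%. The D-box (TTATGTAA) stood in 2 of the 185, 0 of the 203 and 59 of the 11773. Of 81 named genes past the threshold with a promoter, 3 held a forkhead element: Trim63, Il33, which fell, and Ccnd3, which rose. In this window Mt1, Slc30a1, Dbp, Nr1d2, Arntl, Depp1, Cdkn1a and Foxo1 held none of the 4 (0 matches each), which says only that these letters are not in those 250 bases.

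Of 49 sarcomere and Z-disc genes only Pdlim5, a Z-disc scaffold gene, passed, with a fall of 0.39 ± 0.09 (adjusted p = 0.0179), although 1 of its 2 other probes gave 0.14. None of 22 fast fibre genes passed (0 of 22, and 0 at an unadjusted p under 0.05), with a median of 0.04, nor any of 23 slow fibre genes (0 of 23, and 1 higher at an unadjusted p under 0.05). The slow fibre median of −0.24 came from unlike slides, 0.79 on slide 1, −0.95 on slide 2 and −0.79 on slide 3. Nmrk2, a muscle gene of NAD synthesis, rose by 1.65 ± 0.44 (adjusted p = 0.0410), from 2.45 to 5.79 in STD_Cont to 5.12 to 6.45 in HFD_Cont, and was kept in 12 of 24 fits. Hdac9, a deacetylase gene that responds to denervation, rose by 0.58 ± 0.13 (kept in 22 of 24).

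Chac1, which degrades glutathione and is induced by amino acid stress, fell by 0.94 ± 0.23 (adjusted p = 0.0273, kept in 18 of 24), and Ppp1r15a, which restores translation after stress, by 0.55 ± 0.14 (kept in 14 of 24), 2 of 33 genes of the integrated stress response. Of 33 measured genes of endoplasmic reticulum chaperones and the unfolded protein response 1 rose and 1 fell. The co-chaperone gene Dnajb9 fell by 0.31 ± 0.08 and Creld2 rose by 0.24 ± 0.06, each kept in 15 of 24. Hspb3, a small heat shock protein gene of muscle, rose by 0.35 ± 0.08 (adjusted p = 0.0237, kept in 23 of 24). It was the 1 of 37 measured heat shock protein genes to pass. Of 28 measured p53 targets 1 rose, Ddit4l by 0.46 ± 0.12 (kept in 14 of 24), and 2 fell. The falls were those of Cdkn1a, given above, and of Trp53inp1 by 0.51 ± 0.14 (kept in 13 of 24). Over all names tested, 1.43% passed higher and 1.48% lower. Of 16 measured fibroblast markers only Gli1 passed, with a fall of 0.42 ± 0.11 (kept in 11 of 24). Of these 16 markers 8 lay above 0 and 8 below, with a median of 0.02. Of 11 measured tendon markers only Angptl7 passed, with a fall of 0.93 ± 0.22 (kept in 18 of 24). The other tendon markers, 10 in number, lay above 0, and the list median was 0.29.

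Each comparison of HFD_O3 with another group shares that group, HFD_Cont or STD_Cont, with the main comparison. HFD_O3 values are therefore given beside the main comparison and not as a check of it. Depp1 had a mean level of 2.23 ± 1.66 (SD, n = 8) in HFD_O3, against 0.91 ± 0.66 in HFD_Cont and 4.05 ± 1.45 in STD_Cont. Ccnd1 had −0.71 ± 0.65, −0.24 ± 0.21 and −1.34 ± 0.34 in the same order, and Serpinh1 2.50 ± 0.24, 2.59 ± 0.13 and 1.95 ± 0.14. Of the 40 leading genes, 0 passed between HFD_O3 and HFD_Cont and 9 between HFD_O3 and STD_Cont.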

How the data were processed

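Per the file headers, Agilent Feature Extraction 10.10.1.1 turned the scans of the 24 arrays into the deposited spot intensity in raw and background-subtracted form; probe coordinates are on mm9. The authors also deposited a table of log2 values; limma is named, with no version, per the submitters' processing notes. Here the processed intensity was used: outlier spots were dropped, replicate spots averaged as log2, and the 75th percentile of each array subtracted. Probes well above background on at least 6 of 8 arrays of at least 1 group were kept (29245 of 56605), and the brightest stood for its gene name (19937 names, 6303 with more than 1 probe); symbols came from RefSeq by accession for 32994 probes. The test was limma 3.58.1 under R 4.3.3, two-sided, over all 24 arrays and without a block; p-values were adjusted by Benjamini-Hochberg across every tested name, with 0.05 as the threshold. The pipeline was tested on simulated data. The number of arrays limits the precision.

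Of the names kept in all 24 fits that left out 1 array, the 20 largest rises and falls with a plain symbol are named, and from each of 59 lists up to 6 members past the threshold, or 2 as values where none passed; not all are printed, and 2 of the largest falls are not reported here. The members and lists were chosen with earlier results of these data known. The white adipocyte score is the mean of its 16 markers. Alternatives were normexp (offset 50), quantile, cyclic loess or median scaling, the deposited table, other filters, the mean of probes, slide and row blocks, the replicate number as a block, other variance models, fewer arrays, and the adipocyte score as a covariate; the block of slide by row was chosen after seeing the data. Figures were drawn with matplotlib 3.10.9.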

Additional observations from a re-analysis of the deposited data

Results flagged for a closer look

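In 13 of the 298 groups of 8 arrays examined for the named genes, 1 array lay apart from the rest, by Dixon's test of its gap to the nearest array; chance gives about 1 in 20. Among genes past the threshold, Sybu was lowest at −5.22 on STD_Cont 3 (next −3.39) and highest at −1.45 on HFD_Cont 4 (next −1.99). Ppm1n was lowest at −3.32 on HFD_Cont 3, Spock2 highest at −1.56 on HFD_Cont 8, Decr1 highest at 6.96 on HFD_Cont 3, Cxcl13 highest at −3.23 on HFD_Cont 4, and Slc39a10 highest at −1.41 on HFD_Cont 5. Among genes that did not pass, Psmc2 was highest at 6.42 on HFD_Cont 6, Pygm lowest at 9.001 on STD_Cont 7, Cd14 highest at −0.23 on STD_Cont 3, Ciita and Cd79b highest at −1.63 and −0.72 on STD_Cont 4, and Kit highest at −0.93 on HFD_Cont 7.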

How the results depend on the processing

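The count of 581 names depended on the arrays and the spread estimate. It was 177 with median scaling, 135 with no filter on dim probes, 73 with slide by array row as a block (chosen after seeing the data), 385 after adjusting for the adipocyte score, 1166 with only the 2 groups, 1168 with array weights and 1238 without HFD_O3 1 and 7. It was 0 on slide 1 alone, 0 on slide 2 alone, 0 on slide 3 alone and 0 without the adipocyte-rich arrays, where limma gave 1617, 2209, 1431 and 1691 names at an unadjusted p under 0.05; these fits hold fewer arrays. Leaving out 1 array gave 182 (without STD_Cont 1) to 977 (without HFD_O3 7). Further fits that moved the count by over 1.5 times left out HFD_Cont 1 (365), 2 (319), 4 (375), 5 (274), 6 (385) or 7 (381), or STD_Cont 3 (263), 4 (319) or 7 (335). The other alternatives gave 405 to 722. Deviations of HFD_Cont and STD_Cont arrays with the same replicate number correlated at −0.13 to 0.36. The highest was that of replicate 4, against a mean of −0.07 with the other numbers. The replicate block gave 628 names. For the 40 leading genes, 684 of 880 alternatives other than leaving out 1 array kept the call, 196 lost it and 0 reversed; with slide by array row as a block 12 of the 40 kept it. The 15 reversals among named genes concern genes that did not pass as reported: on slide 1 Lmod2 (0.38), Cacna1s (−0.067) and Nnat (−0.47), on slide 2 Cd247 (−0.15), Cd79b (−0.53) and Kit (−0.145), on slide 3 Pygm (0.039), Cidea (−0.25), Cspg4 (−0.155), S100a9 (0.28), Mcpt4 (−0.22) and Ncmap (0.029), with the mean of probes Pygm (0.015), and with slide by array row Mcpt4 (−0.12). Leaving out 1 array moved Cd79b between −0.007031 and 0.63. The cause of these changes was not tested. Signal near background limits Galnt3, Cxcl13, Prnd and Ciart.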

Other observations

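Further genes outside the naming rule, chosen after their values were seen, include some known from vessels and from the cytoskeleton. No list or test stands behind this grouping, and only rises are printed. Of the 20 markers of the endothelial list, 10 had a difference above 0 and 10 below. Of endothelial genes, the protocadherin gene Pcdh12 rose by 0.555 ± 0.10 (SE, limma adjusted p = 0.00982), the transcription factor gene Ets1 by 0.42 ± 0.08 (adjusted p = 0.0143) and the tetraspanin-like gene Tm4sf1 by 0.37 ± 0.08 (adjusted p = 0.0155), each kept in all 24 fits that left out 1 array.

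Of cytoskeletal genes, Cnn2, a calponin, rose from a mean level of −1.07 ± 0.15 (SD, n = 8) in STD_Cont to −0.54 ± 0.15 in HFD_Cont, with an adjusted p of 0.00436 from limma. The tubulin gene Tuba1a rose by 0.56 ± 0.12 (adjusted p = 0.0174) and the tropomyosin gene Tpm4 by 0.41 ± 0.09 (adjusted p = 0.0171), both kept in 24 of 24 fits. Tubb2b rose by 0.56 (kept in 15 of 24) and Anxa2, an actin- and membrane-binding annexin gene, by 0.52 (kept in 13 of 24).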
